A study of Solanum lycopersicum with 9 samples.

Results

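Leaves of the tomato cultivar Diana (Solanum lycopersicum) that had received 30 mM p-hydroxybenzoic acid (PHBA) for 2 days were compared with untreated leaves of the same cultivar. Libraries are numbered 1 to 3 within a group, as in the labels. The comparison uses 6 of the 9 libraries of the study, the 3 that the labels give as 30 mM and the 3 that they give as untreated (0 mM). The other 3 libraries, from leaves at 15 mM, share the estimate of the spread and are named where the response at 30 mM is set against that dose. Plants were grown from seed in plug trays and were about one month old at treatment. No transgene, mutant or second cultivar is named. Sequencing was of leaf RNA, and abundance is given as FPKM, fragments scaled to the length of the sequence and to the fragments of the library. The labels state that RNA of the same treatment was pooled in equal parts but not whether each library of a group had its own plants. The p-values describe the spread between these libraries only, and that spread may be technical. Transcripts were assembled de novo, so each is named by its assembly identifier and by the protein family its annotation gives. Several sequences may be pieces or near copies of 1 gene.

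PHBA is a small phenolic acid that builds up in soil under continuous cropping and is widely used as a model allelochemical, a plant compound that restrains the growth of other plants. Plant cells commonly handle foreign phenolics in steps. Oxidases and reductases alter the molecule, transferases join it to sugar or glutathione, and membrane transporters move the product to the vacuole or out of the cell. Peroxidases can also oxidise phenolics, with hydrogen peroxide as the partner, and join them into lignin-like polymers.

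At 30 mM, VQ and calmodulin-binding factors and haem peroxidases had the largest shares of higher sequences on the deposited scale of FPKM. Proteasome subunits and proteins with lectin or S-locus domains came next. The 23 rises among 37 proteasome subunits became 7 after quantile normalization, explained below. They became 2, 5 and 7 without control library 1, 2 or 3. Proteins of the photosynthetic light reactions had the largest share of lower sequences. In bulk leaf RNA, fewer cells of a type and less RNA per cell cannot be told apart. Of 82125 sequences in the table, 44203 reached 0.5 FPKM in 3 or more of the 9 libraries and were tested. Of these, 11.8% were called at an adjusted p under 0.05 (5200 sequences, 4425 higher and 775 lower). Of the 13634 tested sequences with an annotation, 24.0% were called, 21.1% higher (2876) and 2.95% lower (402). These 2 shares of annotated sequences are the background for every family count below on the deposited scale. The median log2 fold change of annotated sequences, 0.30, is the background for every family median. Of annotated sequences, 55.2% showed no overlap between the 3 control and the 3 treated libraries, so a lack of overlap alone is common. Among the 30569 sequences outside the annotation, 6.29% were called, 5.07% were called higher and 1.22% lower. A sequence could pass the filter through the 30 mM libraries alone, so family counts describe the tested sequences only. All fold changes are differences on the log2(FPKM + 1) scale, which understates changes from low levels.

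The lean toward higher calls depends on the scale of the libraries. After quantile normalization, which gives each library the same distribution of values, 11.6% of annotated sequences were higher and 10.6% lower, and the median of annotated sequences moved from 0.30 to 0.04. After median-of-ratios rescaling, 13.3% were higher and 9.73% lower. For this reason the counts after quantile normalization are given beside those on the deposited scale. Their background is the 11.6% and 10.6% of annotated sequences. Single libraries also mattered. The 5200 calls became 2350, 2473 and 3159 without control library 1, 2 or 3, and 2872 without 30 mM library 1. Among annotated sequences, leaving out 1 control or 30 mM library gave 1301 to 2350 rises and 164 to 379 falls. Those ranges are the background for family counts without 1 of these libraries.

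On the deposited scale, the only one counted here, large changes were mostly rises. A change of at least 1 on the log2 scale together with a call was seen in 10.2% of annotated sequences. Among these, 1239 rose and 153 fell. At 2 or more there were 225 rises and 11 falls, and at 3 or more 53 rises and 0 falls. A fall on the log2(FPKM + 1) scale cannot exceed the control level on that scale, while a rise has no such limit. The controls summed to between 349076 and 366748 FPKM and the treated libraries to between 366432 and 383347 FPKM, and relative depth was 0.96 to 1.21 and 0.88 to 1.17 times that of control library 1. Sequences listed for leaf mesophyll were present in every library. The RuBisCO small chain stood at 89.7 to 141 FPKM in the controls and at 96.4, 94.5 and 50.9 FPKM at 30 mM, with 30 mM library 3 below the others. The summed level of 24 chlorophyll a-b binding sequences was 4900 to 7560 FPKM in the controls and 1820 to 2910 FPKM at 30 mM. That of 24 photosystem subunits was 17700 to 22500 FPKM in the controls and 15900 to 21500 FPKM at 30 mM, and overlapped. Of the markers of other organs, root cap and seed maturation proteins had no sequence in the table, and the 1 oleosin did not pass 1.21 FPKM. The summed level of 6 Ole e I pollen-type proteins was 28.4 to 45.2 FPKM in controls and 25.4 to 38.2 at 30 mM. The other markers are words matched in family descriptions, which do not show that a sequence belongs to the organ. The 17 sequences matched as casparian strip, listed for root, summed to 45.6 to 52.3 and 48.1 to 66.4 FPKM, and 1 of 16 tested was higher. Patatin-type sequences, listed for tuber or fruit, summed to 15.2 to 20.6 and 24.2 to 36.3 FPKM, with 2 of 8 tested higher. The 16 sequences matched as polygalacturonase, listed for fruit, summed to 19.7 to 21.1 and 22.0 to 29.2 FPKM, with 2 of 14 tested higher. The part of the patatin and polygalacturonase groups in the results was not tested.

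**Figure D1:**
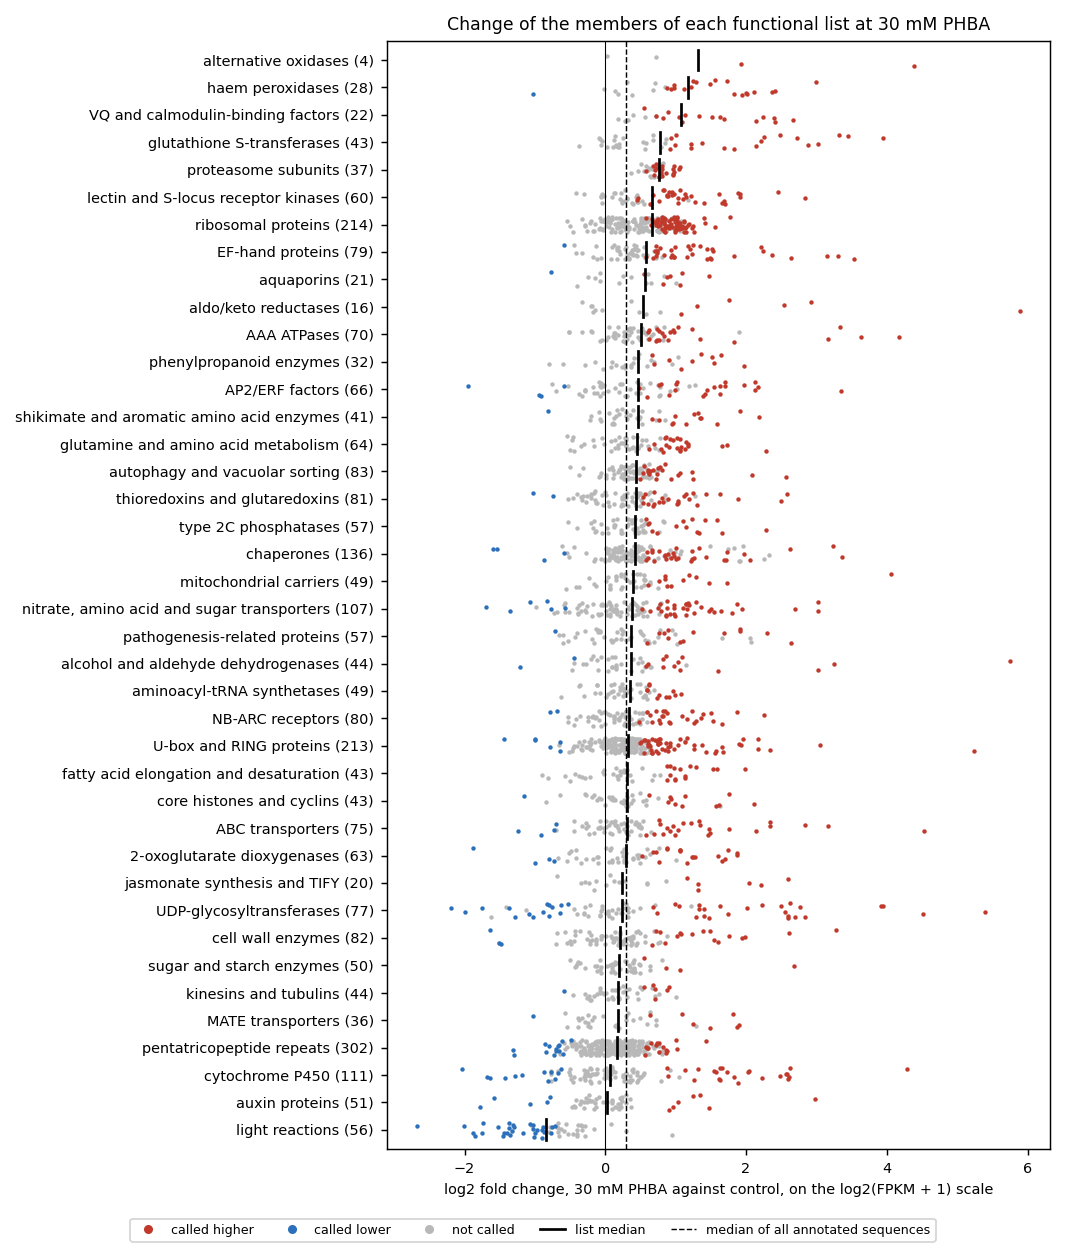
Log2 fold change at 30 mM PHBA against control for each tested member of 40 functional lists, on the log2(FPKM + 1) scale, with the number tested in brackets. Each point is a sequence, the short black bar is the list's median and the dashed line the median of annotated sequences, 0.30. Light reactions have a median of -0.84, and 4 lists at the top, alternative oxidases, haem peroxidases, VQ and calmodulin-binding factors and glutathione S-transferases, have medians of 1.32, 1.17, 1.07 and 0.78.

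Among enzymes that conjugate small molecules, glutathione S-transferases had a larger share of rises than annotated sequences as a whole, and glycosyltransferases moved both ways. Glutathione S-transferases join reactive compounds to glutathione. Of the 43 tested (45 in the table), 19 rose (44.2%) and 0 fell, with a median of 0.78, and after quantile normalization 18 rose and 2 fell. T15_1_TRINITY_DN13646_c1_g1 was at 1.68, 2.40 and 4.58 FPKM in the controls and at 72.0, 34.2 and 71.3 FPKM at 30 mM (log2 fold change 3.94 with SE 0.36, adjusted p = 0.000438). T15_3_TRINITY_DN10304_c0_g1 was listed at 0, 0.12 and 0.12 FPKM in the controls and stood at 13.6, 7.29 and 12.6 FPKM at 30 mM (log2 fold change 3.45 with SE 0.25, adjusted p = 0.000175). In both, every treated library lay far above every control and 30 mM library 2 was the lowest of the treated. The rises of both were larger at 30 mM than at 15 mM (adjusted p = 0.0025 and 0.00231).

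UDP-glycosyltransferases attach sugars to phenolics, hormones and other small molecules, and this family moved both ways. Of 77 tested (80 in the table), 26 rose and 15 fell, shares of 33.8% and 19.5%, with a median of 0.23. After quantile normalization 24 rose and 20 fell. T30_3_TRINITY_DN5513_c0_g2 was at 1.38, 0.69 and 1.47 FPKM in the controls and at 107, 51.1 and 131 FPKM at 30 mM (log2 fold change 5.40 with SE 0.44, adjusted p = 0.000271). T30_3_TRINITY_DN1834_c0_g1 was at 3.67, 2.77 and 4.11 FPKM in the controls and at 148, 58.3 and 121 FPKM at 30 mM (log2 fold change 4.51 with SE 0.45, adjusted p = 0.000634). Both groups stood apart in these sequences, again with 30 mM library 2 lowest among the treated. Another pair of the family had the largest gains in FPKM among annotated sequences called. T30_2_TRINITY_DN32688_c0_g1 went from 59.6, 42.0 and 74.2 FPKM to 413, 256 and 370 FPKM, and T30_1_TRINITY_DN87637_c0_g1 from 41.2, 33.5 and 57.4 FPKM to 300, 224 and 345 FPKM, with no overlap in either (adjusted p = 0.00237 and 0.000512). Their folds of the means were 5.91 and 6.57. In the other direction, TCK_1_TRINITY_DN1662_c0_g1 was at 9.49, 6.85 and 11.2 FPKM in the controls and at 0.78, 1.65 and 1.22 FPKM at 30 mM (log2 fold change -2.19 with SE 0.22, adjusted p = 0.000649). It fell in every treated library. TCK_3_TRINITY_DN10993_c0_g1 was at 62.6, 77.3 and 60.9 FPKM in the controls and at 40.3, 8.46 and 11.7 FPKM at 30 mM, and its call (adjusted p = 0.0297) was lost without any 1 control and without 30 mM library 2 or 3. Leaving out control library 1, 2 or 3 reduced the 15 falls to 7, 5 and 7, and leaving out 30 mM library 2 or 3 to 8 and 6.

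Oxidising and reducing enzymes held single members with some of the largest rises in a mixed background. Cytochrome P450 enzymes insert oxygen into hormones, pigments and defence compounds. Of 111 tested (129 in the table), 24 rose (21.6%) and 12 fell with a median of 0.07, and the balance turned to 20 rises and 27 falls after quantile normalization. T15_1_TRINITY_DN32985_c0_g1 was at 1.10, 0.67 and 1.04 FPKM in the controls and at 33.4, 49.9 and 29.6 FPKM at 30 mM (log2 fold change 4.29 with SE 0.25, adjusted p = 0.000111), here with 30 mM library 2 the highest. TCK_3_TRINITY_DN6372_c0_g1 was at 5.15, 5.22 and 5.57 FPKM in the controls and at 0.33, 0.78 and 0.56 FPKM at 30 mM (log2 fold change -2.03 with SE 0.15, adjusted p = 0.000214), close together in both groups. The 12 P450 falls were 6 and 7 without control library 2 or 3 and 7 without 30 mM library 3. Aldo/keto reductases reduce carbonyl groups. Of 16 tested, 6 rose (37.5%) and 0 fell, and 5 rose and 4 fell after quantile normalization. T15_3_TRINITY_DN17633_c0_g2 of this family had the largest log2 rise of the annotated sequences named here, from 0.51, 0.28 and 0.40 FPKM to 137, 44.0 and 90.8 FPKM (log2 fold change 5.90). Its relative T15_1_TRINITY_DN64895_c0_g1 went from 0.24, 0.20 and 0.24 FPKM to 14.6, 4.28 and 8.66 FPKM, with the treated libraries in the same order.

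Alcohol and aldehyde dehydrogenases, which interconvert alcohols, aldehydes and acids, gave 13 rises (29.5%) and 2 falls among 44 tested, and 7 rises and 8 falls after quantile normalization. The 13 rises became 7 without any 1 of the controls or without 30 mM library 1. TCK_2_TRINITY_DN1334_c0_g2 was at 2.00, 1.69 and 2.89 FPKM in the controls and at 222, 106 and 207 FPKM at 30 mM, and TCK_2_TRINITY_DN53681_c0_g1 went from 2.77, 2.51 and 3.21 FPKM to 44.5, 20.9 and 47.3 FPKM (adjusted p = 0.000509). The groups did not overlap in either. The 2-oxoglutarate dioxygenases, iron enzymes that hydroxylate hormones and flavonoids, gave 19 rises (30.2%) and 4 falls among 63 tested, and 14 and 8 after quantile normalization. T30_3_TRINITY_DN1745_c0_g1, already abundant in the controls at 44.2, 47.0 and 53.7 FPKM, reached 211, 128 and 209 FPKM (log2 fold change 1.86 with SE 0.22, adjusted p = 0.00134). T15_3_TRINITY_DN3169_c0_g1 fell from 26.2, 26.9 and 28.3 FPKM to 8.08, 8.18 and 4.29 FPKM (log2 fold change -1.89 with SE 0.23, adjusted p = 0.00163). The 19 rises became 12 without control library 1, and the 4 falls became 1 without any 1 control, 30 mM library 3 or 15 mM library 1, and 2 without 30 mM library 2.

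Haem peroxidases, a family that includes secreted enzymes that oxidise phenolics and build lignin, had 1 of the 8 largest shares of rises. That rank is among protein families with at least 10 tested sequences. Of 28 tested (31 in the table), 19 rose (67.9%) and 1 fell, with a median of 1.17. After quantile normalization 17 rose and 2 fell. T30_1_TRINITY_DN5643_c0_g2 was at 0.57, 0.87 and 0.85 FPKM in the controls and at 16.0, 15.3 and 8.88 FPKM at 30 mM (log2 fold change 2.99 with SE 0.25, adjusted p = 0.000303), and T30_2_TRINITY_DN8520_c0_g1 went from 0.79, 0.35 and 0.81 FPKM to 16.9, 5.34 and 4.87 FPKM (adjusted p = 0.00937). The 1 fall was TCK_2_TRINITY_DN3059_c0_g1, from 5.15, 7.11 and 6.23 FPKM to 1.90, 3.75 and 2.13 FPKM (adjusted p = 0.0124), a call lost without control library 2. The median difference of the family from the control mean was 1.60, 0.83 and 0.90 in 30 mM libraries 1, 2 and 3, highest in library 1, and 0.30, 0.10 and 0.44 in the 15 mM libraries. The rises numbered 11 without control library 1 or 2.

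Thioredoxins and glutaredoxins reduce protein disulfides. They gave 24 rises (29.6%) and 2 falls among 81 tested, and 11 and 13 after quantile normalization, so the balance of this list depends on the scaling. The 24 rises became 7, 8 and 13 without control library 1, 2 or 3, 12 without 30 mM library 1 and 15 without 15 mM library 1. The glutaredoxin T15_3_TRINITY_DN58183_c0_g1 was at 7.90, 9.51 and 9.68 FPKM in the controls and at 64.4, 54.8 and 57.1 FPKM at 30 mM (log2 fold change 2.58 with SE 0.17, adjusted p = 0.000151), while the glutaredoxin TCK_2_TRINITY_DN1437_c0_g1 fell from 12.9, 13.2 and 14.7 FPKM to 6.37, 4.95 and 7.37 FPKM (log2 fold change -1.02 with SE 0.17, adjusted p = 0.00592). Both kept a clear gap between the groups.

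**Figure D2:**
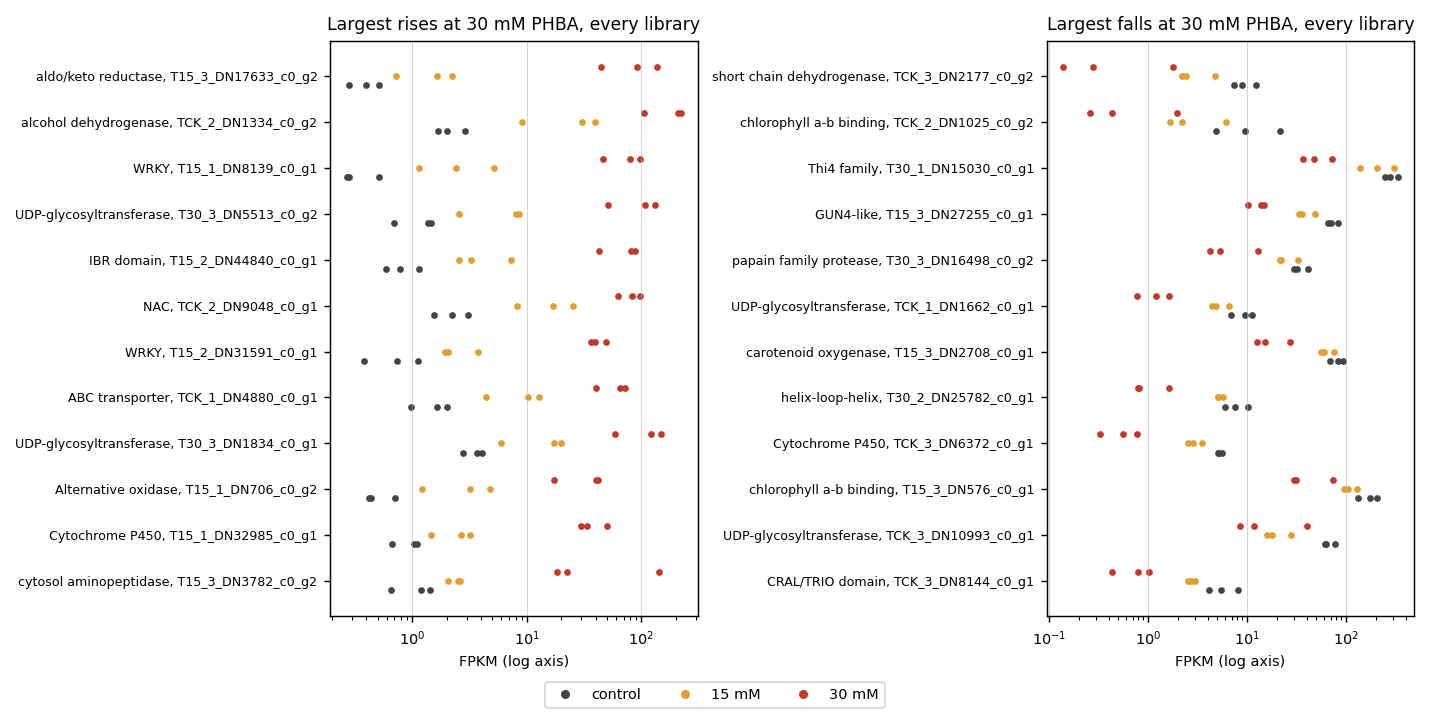
FPKM on a log axis in each of the 9 libraries for the 12 largest rises (left) and 12 largest falls (right) at 30 mM PHBA among annotated sequences with a known family, a mean of at least 5 FPKM in either group and no overlap of the groups. The word TRINITY is left out of the names. Black points are controls, orange points 15 mM and red points 30 mM. The aldo/keto reductase at the top left goes from 0.28 to 0.51 FPKM in controls to 44.0 to 137 FPKM at 30 mM.

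Of 2 transporter families that can move conjugates, ABC transporters had a larger share of rises than annotated sequences on the deposited scale and MATE transporters did not. After quantile normalization both families had a larger share of rises than the 11.6% of annotated sequences. ABC transporters use ATP to export or sequester compounds. Of 75 tested, 24 rose (32.0%) and 4 fell, and 17 and 10 after quantile normalization. TCK_1_TRINITY_DN4880_c0_g1 was at 1.64, 0.97 and 2.03 FPKM in the controls and at 71.4, 40.2 and 64.8 FPKM at 30 mM (log2 fold change 4.53 with SE 0.36, adjusted p = 0.000245). TCK_2_TRINITY_DN8645_c0_g1 went from 2.51, 2.75 and 2.59 FPKM to 43.2, 27.3 and 26.5 FPKM (log2 fold change 3.17 with SE 0.22, adjusted p = 0.000163). In both, the lowest treated library was more than any control by a wide margin. The 4 falls became 2 without control library 1 or 3 and without 30 mM library 1 or 3. MATE transporters, which exchange protons for organic compounds, gave 7 rises (19.4%) and 1 fall among 36 tested, and 6 and 3 after quantile normalization. TCK_1_TRINITY_DN448_c0_g1 rose from 12.8, 12.9 and 15.5 FPKM to 56.6, 39.2 and 59.0 FPKM, and T30_3_TRINITY_DN28608_c0_g1 fell from 9.36, 8.56 and 11.7 FPKM to 3.72, 4.91 and 4.32 FPKM (adjusted p = 0.00352 and 0.00351).

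In mitochondria, 2 of 4 alternative oxidases rose, before and after quantile normalization. These terminal oxidases pass electrons to oxygen without pumping protons. T15_1_TRINITY_DN706_c0_g2 was at 0.44, 0.42 and 0.71 FPKM in the controls and at 40.3, 17.3 and 41.6 FPKM at 30 mM, and the more abundant T15_2_TRINITY_DN4579_c0_g1 went from 7.71, 8.07 and 9.81 FPKM to 36.4, 29.2 and 40.2 FPKM (log2 fold change 1.92 with SE 0.24, adjusted p = 0.00156). Mitochondrial carriers, which exchange metabolites across the inner membrane, gave 12 rises (24.5%) and 0 falls among 49 tested, and 8 and 2 after quantile normalization. The 12 rises became 7 without control library 1. The carrier TCK_1_TRINITY_DN13088_c0_g1 stood out within its family, from 1.58, 1.42 and 1.49 FPKM to 46.7, 24.6 and 58.4 FPKM (log2 fold change 4.06 with SE 0.31, adjusted p = 0.000224).

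Enzymes that make aromatic compounds had larger shares of rises than the 21.1% of annotated sequences on the deposited scale. The shikimate route supplies phenylalanine, tyrosine and tryptophan and thereby the phenylpropanoids. Of 41 tested sequences of this route and of aromatic amino acids, 13 rose (31.7%) and 1 fell, with a median of 0.46, and 11 and 4 after quantile normalization. TCK_3_TRINITY_DN1106_c0_g1, a class II DAHP synthase, the enzyme of the committed first step, was at 9.84, 9.95 and 13.4 FPKM in the controls and at 71.5, 29.5 and 39.8 FPKM at 30 mM (log2 fold change 1.91 with SE 0.28, adjusted p = 0.00363). T30_3_TRINITY_DN52876_c0_g1, a prephenate or arogenate dehydratase of the phenylalanine branch, rose from 1.39, 1.51 and 1.73 FPKM to 9.72, 7.10 and 16.5 FPKM (log2 fold change 2.18 with SE 0.25, adjusted p = 0.00112). Of 32 phenylpropanoid and laccase-type sequences tested, 10 rose (31.2%) and 0 fell, and 8 and 1 after quantile normalization. Both named rises of this list were multicopper oxidases, a family that includes the laccases of lignin formation, such as TCK_1_TRINITY_DN7778_c0_g1 (2.76, 4.49 and 3.0 FPKM in controls, 15.4, 8.51 and 11.3 FPKM at 30 mM). The 10 rises became 5 without control library 1 or 3 and 6 without 30 mM library 1.

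Fatty acid elongation and desaturation gave 15 rises (34.9%) and 0 falls among 43 tested, and 13 and 7 after quantile normalization. The 15 rises became 9 without control library 1. Within it the FAE1 family, ketoacyl synthases that lengthen the acyl chains of waxes and suberin, had the largest share of rises of the 337 protein families with at least 10 tested sequences, 7 of 10 with a median of 0.99, and 6 and 0 after quantile normalization. T30_3_TRINITY_DN3843_c0_g2 was at 0.60, 0.64 and 0.88 FPKM in the controls and at 5.65, 4.73 and 6.91 FPKM at 30 mM (log2 fold change 1.98 with SE 0.15, adjusted p = 0.000236). The 7 families next in order of that share were VQ motif proteins, haem peroxidases, WRKY factors, sequences with the C-terminal domain associated with AAA, D-mannose binding lectins, proteasome subunits and proteins with the central region of dynamins. After quantile normalization 8 of 16 VQ motif proteins rose and 4 of 17 proteasome subunits of this family. Sequences with the dynamin central region, of GTPases that pinch membranes, had 7 rises and 1 fall among 11 tested but 1 and 1 after quantile normalization. The wider dynamin family had 5 rises and 1 fall among 14 tested, and 1 and 3 after quantile normalization. The 7 rises of the central region became 1, 1 and 2 without control library 1, 2 or 3, 2 and 1 without 30 mM library 1 or 3, and 3 without 15 mM library 1.

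Cell-surface and calcium signalling families held large shares of rises. Proteins with lectin or S-locus domains include receptor kinases with sugar-binding or self-recognition type ectodomains, many of which act in defence. Members of this list need not carry a kinase domain in their annotation. Of 60 tested (62 in the table), 33 rose (55.0%) and 0 fell, with a median of 0.67, and 22 and 4 after quantile normalization. T30_1_TRINITY_DN10299_c0_g1, a D-mannose binding lectin, was at 1.56, 0.60 and 1.82 FPKM in the controls and at 16.6, 19.1 and 11 FPKM at 30 mM (log2 fold change 2.84 with SE 0.26, adjusted p = 0.000465). T30_3_TRINITY_DN52625_c0_g1, which joins such a lectin domain to a protein kinase domain, went from 1.03, 1.03 and 1.22 FPKM to 11.7, 8.31 and 11.8 FPKM (log2 fold change 2.46 with SE 0.20, adjusted p = 0.000262). Of the D-mannose binding lectins as a protein family, 28 of 43 rose and 0 fell, 19 and 1 after quantile normalization, and 18 rose without control library 1. NB-ARC proteins, the intracellular immune receptors, gave 26 rises (32.5%) and 2 falls among 80 tested, 20 and 7 after quantile normalization, and 16 rises without control library 1. T30_2_TRINITY_DN299_c0_g1 of this family went from 2.55, 3.46 and 3.30 FPKM to 18.6, 16.6 and 20.3 FPKM, with little spread in either group (log2 fold change 2.25 with SE 0.14, adjusted p = 0.000112).

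EF-hand proteins bind calcium and pass its signal on. Of 79 tested, 36 rose (45.6%) and 1 fell, with a median of 0.58, and 23 and 3 after quantile normalization. T30_1_TRINITY_DN33263_c0_g1 was at 1.77, 1.71 and 1.13 FPKM in the controls and at 36.7, 16.2 and 37.2 FPKM at 30 mM (log2 fold change 3.53 with SE 0.30, adjusted p = 0.000311), and T15_1_TRINITY_DN60140_c0_g1 went from 4.63, 2.52 and 6.88 FPKM to 55.9, 35.2 and 72.3 FPKM (adjusted p = 0.00155). Without control library 1 or 2 there were 20 and 21 rises, and without 30 mM library 1 there were 23. VQ proteins, partners of WRKY factors, and calmodulin-binding factors formed the list with the largest share of rises. Of 22 tested, 16 rose (72.7%) and 0 fell, with a median of 1.07, and 13 and 0 after quantile normalization. The VQ sequence TCK_3_TRINITY_DN41322_c0_g1 was at 17.1, 15.4 and 20.7 FPKM in the controls and at 120, 83.0 and 162 FPKM at 30 mM (log2 fold change 2.67 with SE 0.28, adjusted p = 0.000758). Its relative T30_3_TRINITY_DN751_c1_g1 was barely detected in the controls, at 0.26, 0.18 and 0.15 FPKM, and stood at 6.81, 3.75 and 5.98 FPKM at 30 mM, and it passed the filter through the 30 mM libraries alone, so this is a description with no test.

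Of the hormone-linked lists, AP2/ERF and auxin proteins held both directions, and type 2C phosphatases and jasmonate proteins had rises and no falls on the deposited scale. AP2/ERF factors, which include ethylene response factors, gave 21 rises (31.8%) and 4 falls among 66 tested, and 12 and 7 after quantile normalization. T30_3_TRINITY_DN32152_c0_g1 was at 0.04, 0.13 and 0.27 FPKM in the controls and at 10.2, 9.57 and 12.5 FPKM at 30 mM (log2 fold change 3.35 with SE 0.15, adjusted p = 4.98e-05), and T15_3_TRINITY_DN15190_c0_g2 fell from 11.1, 17.5 and 10.3 FPKM to 5.24, 1.30 and 2.06 FPKM (adjusted p = 0.0126), a call lost without control library 2. The 21 rises became 12 and 10 without control library 1 or 2 and 13 without 30 mM library 3. The 4 falls became 2 and 1 without control library 1 or 2, and 2 without 30 mM library 1 or 3 or 15 mM library 1. Type 2C phosphatases, several of which curb abscisic acid signalling, gave 15 rises (26.3%) and 0 falls among 57 tested, and 8 and 2 after quantile normalization. T30_3_TRINITY_DN975_c0_g1 of this family went from 1.09, 1.16 and 1.95 FPKM to 11.4, 9.83 and 10.3 FPKM (log2 fold change 2.28 with SE 0.17, adjusted p = 0.000194). Their 15 rises became 8, 9 and 9 without control library 1, 2 or 3, and 8 and 9 without 30 mM library 1 or 3.

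Jasmonate synthesis enzymes and TIFY proteins gave 6 rises (30.0%) and 0 falls among 20 tested, and 3 and 1 after quantile normalization. T15_1_TRINITY_DN11231_c0_g1, a TIFY protein of the kind that represses jasmonate responses, went from 3.86, 2.59 and 2.14 FPKM to 22.2, 12.7 and 37.4 FPKM (log2 fold change 2.60 with SE 0.34, adjusted p = 0.00217). The lipoxygenase T30_1_TRINITY_DN1897_c0_g1 rose from 1.29, 1.59 and 1.37 FPKM to 25.8, 4.72 and 8.16 FPKM (adjusted p = 0.0203), a call lost without any 1 control. Auxin-related proteins had a median of 0.03, with 7 rises (13.7%) and 5 falls among 51 tested, and 6 and 13 after quantile normalization, so their balance turned with the scaling. The 7 rises became 4 without control library 1 or 2 or 30 mM library 1. The 5 falls became 3 without control library 2 or 3 or 30 mM library 1, and 8 without 30 mM library 2. The GH3 family, enzymes that join hormones to amino acids, held both directions, with 3 rises and 3 falls among 12 tested. After quantile normalization 3 rose and 4 fell. Its 3 rises became 1 without control library 1 or 2 or 30 mM library 1. T30_3_TRINITY_DN12909_c0_g1 was at 0.08, 0.03 and 0.03 FPKM in the controls and at 12.4, 3.96 and 7.34 FPKM at 30 mM. It passed the filter through the 30 mM libraries alone, so its values are a description with no test. T30_3_TRINITY_DN17041_c0_g1 was at 25.1, 24.4 and 28.2 FPKM in the controls and at 7.49, 8.72 and 4.74 FPKM at 30 mM (log2 fold change -1.78 with SE 0.20, adjusted p = 0.00109).

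On the deposited scale, proteasome subunits and ribosomal proteins, of protein synthesis and turnover, had larger shares of rises than the 21.1% of annotated sequences. Aminoacyl-tRNA synthetases, chaperones and U-box and RING proteins were close to that background, and pentatricopeptide repeat proteins were far below it. The proteasome is the protease complex that degrades tagged proteins. Of 37 subunit sequences tested, 23 rose (62.2%) and 0 fell, with a median of 0.76, and after quantile normalization 7 rose and 0 fell. The largest named change was that of TCK_1_TRINITY_DN7560_c0_g1, from 11.4, 11.9 and 13.6 FPKM to 33.9, 22.9 and 24.0 FPKM (log2 fold change 1.06 with SE 0.20, adjusted p = 0.0114), and this call was lost without control library 1. The 23 rises became 2, 5 and 7 without control library 1, 2 or 3, 5 without 30 mM library 1 and 13 without 15 mM library 1. Ribosomal proteins gave 72 rises (33.6%) and 0 falls among 214 tested (231 in the table), with a median of 0.66. After quantile normalization 24 rose and 12 fell, a share of rises no larger than the 11.6% of annotated sequences. The median difference of this list from the control mean was 1.03, 0.60 and 0.35 in 30 mM libraries 1, 2 and 3 and -0.04 to 0.38 in the 15 mM libraries. The 72 rises became 17, 18 and 31 without control library 1, 2 or 3, 35 and 47 without 30 mM library 1 or 2, and 42 without 15 mM library 1. TCK_2_TRINITY_DN839_c0_g1, a ribosomal protein of the L16p/L10e type, went from 10.2, 9.06 and 12 FPKM to 50.2, 36.2 and 29.6 FPKM (log2 fold change 1.77 with SE 0.25, adjusted p = 0.00314). Aminoacyl-tRNA synthetases, which charge tRNAs, gave 11 rises (22.4%) and 0 falls among 49 tested, but 4 and 7 after quantile normalization. These 11 became 4, 5 and 6 without control library 1, 2 or 3, 5 without 30 mM library 1 and 7 without 15 mM library 1.

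**Figure D3:**
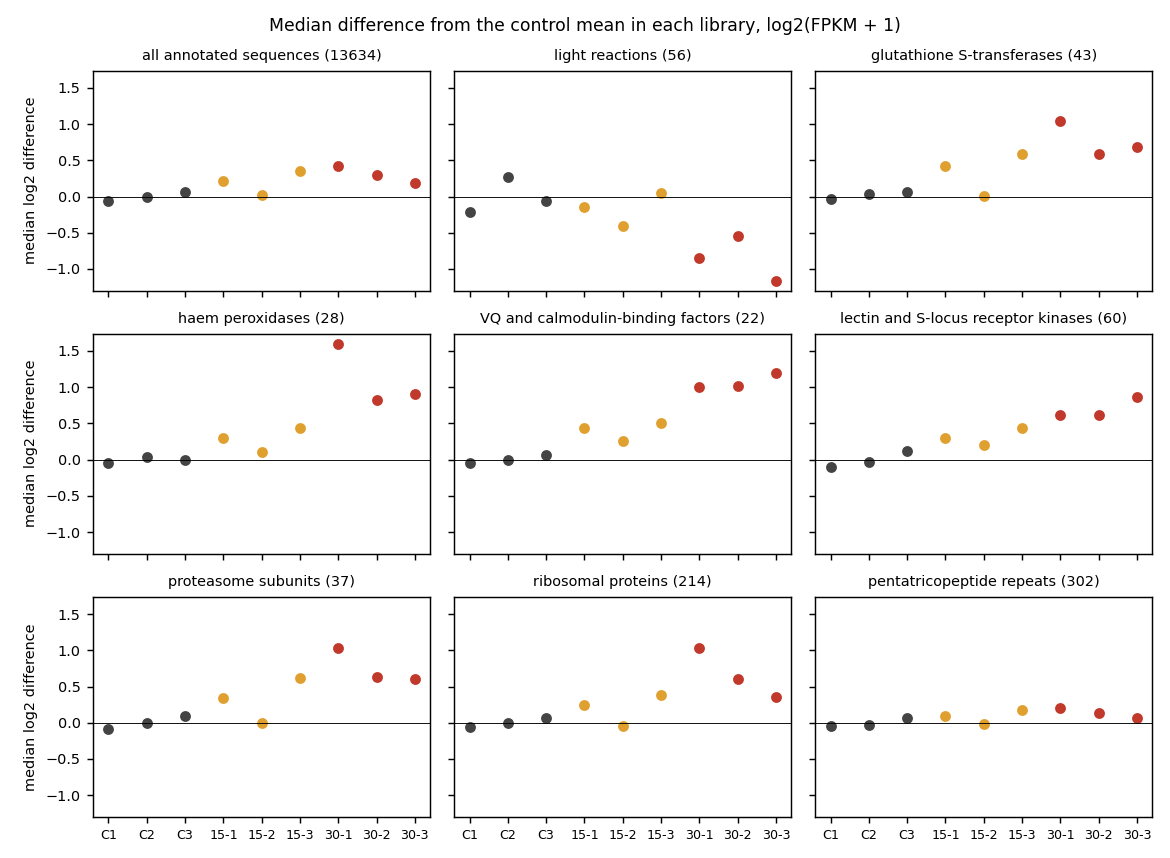
Median difference from the control mean on the log2(FPKM + 1) scale in each of the 9 libraries (C, control; 15 and 30, dose in mM; then the number of the library) for annotated sequences and 8 functional lists, with the number of sequences in brackets. The 30 mM points of haem peroxidases and of VQ and calmodulin-binding factors lie at 0.83 or higher, those of ribosomal proteins spread from 0.35 to 1.03 with library 1 highest, and those of light reactions lie at -0.54 or lower.

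U-box and RING proteins, many of them ubiquitin ligases, gave 52 rises (24.4%) and 6 falls among 213 tested, and 24 and 22 after quantile normalization. T15_2_TRINITY_DN44840_c0_g1, with the in-between-RING domain, went from 0.59, 1.14 and 0.78 FPKM to 88.7, 42.8 and 81.3 FPKM, and T15_2_TRINITY_DN82457_c0_g1 fell from 8.28, 9.93 and 6.57 FPKM to 1.93, 3.96 and 1.62 FPKM (adjusted p = 0.00948). The 52 rises became 23, 22 and 34 without control library 1, 2 or 3 and 30 without 30 mM library 1. The 6 falls became 3, 2 and 3 without control library 1, 2 or 3, 2 without 30 mM library 1 or 3, and 3 without 15 mM library 1. Chaperones, which fold or refold proteins, gave 31 rises (22.8%) and 4 falls among 136 tested (151 in the table), and 12 and 12 after quantile normalization. The named heat shock sequences varied widely between treated libraries. The Hsp90 sequence T30_1_TRINITY_DN1021_c0_g6 was at 0.64, 0.94 and 0.49 FPKM in the controls and at 69.7, 2.52 and 19.7 FPKM at 30 mM (log2 fold change 3.36 with SE 0.93, adjusted p = 0.0491). The Hsp20 sequence T30_3_TRINITY_DN65850_c0_g1 was at 0.34, 0.88 and 0.44 FPKM in the controls and at 39.4, 3.34 and 16.2 FPKM at 30 mM (log2 fold change 3.23 with SE 0.70, adjusted p = 0.0197). In both, 30 mM library 1 was highest and library 2 lowest. The Hsp90 call was lost in 15 of 20 alternatives, among them quantile normalization, median-of-ratios rescaling, the 6 libraries alone and each library left out other than 30 mM library 2, and the Hsp20 call without any 1 control or 30 mM library 3. The 31 rises of chaperones became 5, 7 and 11 without control library 1, 2 or 3, 15 and 12 without 30 mM library 1 or 3, and 18 without 15 mM library 1. Their 4 falls became 2, 1 and 1 without control library 1, 2 or 3, and 2 without 30 mM library 1 or 3 or 15 mM library 1.

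AAA ATPases, motor-like enzymes that unfold or remodel proteins, gave 22 rises (31.4%) and 0 falls among 70 tested, and 9 and 2 after quantile normalization. The 22 rises became 7, 9 and 10 without control library 1, 2 or 3, and 9 and 12 without 30 mM library 1 or 3. Within them the family that also carries the C-terminal domain associated with AAA had 8 rises among 12 tested, a median of 1.37, and 6 and 0 after quantile normalization. T30_1_TRINITY_DN49685_c0_g1 of that family was at 1.52, 1.48 and 2.34 FPKM in the controls and at 54.9, 31.1 and 66.3 FPKM at 30 mM (log2 fold change 4.17 with SE 0.29, adjusted p = 0.000163), and T15_2_TRINITY_DN9083_c0_g1 went from 2.12, 2.05 and 2.39 FPKM to 40.9, 25.2 and 54.5 FPKM (log2 fold change 3.63 with SE 0.27, adjusted p = 0.000203). Autophagy and vacuolar sorting proteins gave 21 rises (25.3%) and 0 falls among 83 tested, and 11 and 3 after quantile normalization. These 21 became 9, 11 and 11 without control library 1, 2 or 3, 9 and 13 without 30 mM library 1 or 3, and 12 without 15 mM library 1. Both named rises were regulators of Vps4, a factor of membrane sorting, such as TCK_1_TRINITY_DN53859_c0_g1 (1.0, 0.77 and 0.83 FPKM in controls, 7.20, 4.05 and 11 FPKM at 30 mM). Pentatricopeptide repeat proteins, which process RNA in plastids and mitochondria, had a median of 0.17 with 16 rises (5.30%) and 14 falls among 302 tested (370 in the table), and 4 and 29 after quantile normalization. The 16 rises became 2, 2 and 8 without control library 1, 2 or 3, 4 and 10 without 30 mM library 1 or 2, and 8 without 15 mM library 1. The 14 falls became 8, 5 and 5 without control library 1, 2 or 3, and 6, 9 and 8 without 30 mM library 1, 2 or 3. TCK_3_TRINITY_DN2323_c0_g1 fell from 6.83, 8.10 and 8.33 FPKM to 2.11, 3.12 and 2.39 FPKM (log2 fold change -1.31 with SE 0.14, adjusted p = 0.000913).

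Defence proteins of the pathogenesis-related lists gave 13 rises (22.8%) and 1 fall among 57 tested, a share of rises close to that of annotated sequences as a whole, and 6 and 4 after quantile normalization. The chitinase T30_3_TRINITY_DN5838_c0_g1, of the enzymes that cut fungal walls, went from 0.49, 0.42 and 0.96 FPKM to 12.2, 5.75 and 10.1 FPKM (log2 fold change 2.63 with SE 0.27, adjusted p = 0.000755). Another chitinase, TCK_3_TRINITY_DN620_c0_g1, was at 5.40, 6.02 and 7.80 FPKM in the controls and at 92.0, 29.8 and 15.5 FPKM at 30 mM, led by library 1, and its call (adjusted p = 0.0243) was lost without any 1 control and after quantile normalization. The 13 rises became 6, 5 and 6 without control library 1, 2 or 3 and 8 without 30 mM library 1. Cell wall enzymes gave 17 rises (20.7%) and 3 falls among 82 tested, and 12 and 9 after quantile normalization. Xyloglucan endotransglycosylases, which cut and rejoin wall polymers, moved both ways. T30_2_TRINITY_DN11898_c0_g1 rose from 2.35, 4.47 and 2.88 FPKM to 47.5, 47.8 and 26.8 FPKM (log2 fold change 3.28 with SE 0.34, adjusted p = 0.000752), and T30_2_TRINITY_DN17724_c0_g1 fell from 9.89, 12.7 and 8.95 FPKM to 3.24, 3.18 and 2.83 FPKM (log2 fold change -1.48 with SE 0.19, adjusted p = 0.00206). The pectinesterase T15_2_TRINITY_DN6146_c0_g1 fell from 5.96, 6.36 and 6.02 FPKM to 1.56, 2.03 and 0.54 FPKM. The 17 rises became 11 without control library 1, and the 3 falls became 5 without 30 mM library 2.

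Among lists of nitrogen and carbon supply, transporters of nitrate, peptides, ammonium, amino acids and sugars gave 34 rises (31.8%) and 6 falls among 107 tested (120 in the table), and 26 and 18 after quantile normalization. The sugar transporter T15_3_TRINITY_DN9268_c0_g1 rose from 3.06, 2.45 and 3.44 FPKM to 37.1, 19.8 and 41.0 FPKM (log2 fold change 3.02 with SE 0.25, adjusted p = 0.000304). In the POT family of nitrate and peptide carriers, TCK_2_TRINITY_DN5804_c0_g1 rose from 2.11, 2.13 and 2.41 FPKM to 27.2, 19.5 and 29.3 FPKM and TCK_3_TRINITY_DN340_c0_g1 fell from 12.8, 11.3 and 11.7 FPKM to 4.70, 4.68 and 3.07 FPKM (adjusted p = 0.000175 and 0.00235). The ammonium transporter T30_1_TRINITY_DN46563_c0_g1 fell from 10.4, 12.3 and 13.0 FPKM to 3.01, 3.69 and 2.35 FPKM (log2 fold change -1.69 with SE 0.17, adjusted p = 0.000698). The 34 rises became 19 and 21 without control library 1 or 2 and 20 without 30 mM library 1, and the 6 falls became 2, 3 and 3 without control library 1, 2 or 3 and 2 and 3 without 30 mM library 1 or 3. Enzymes of glutamine and other amino acids gave 23 rises (35.9%) and 0 falls among 64 tested, and 17 and 5 after quantile normalization. The class III aminotransferase T15_2_TRINITY_DN37_c0_g3 went from 11.2, 9.64 and 12.4 FPKM to 66.2, 44.5 and 64.8 FPKM (log2 fold change 2.28 with SE 0.25, adjusted p = 0.000913). The 23 rises became 11, 12 and 13 without control library 1, 2 or 3 and 13 without 30 mM library 1.

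Sugar and starch enzymes had a smaller share of rises than annotated sequences as a whole, 4 of 50 tested and 0 falls, and 2 and 14 after quantile normalization. Among them the sucrose synthase T15_3_TRINITY_DN3657_c0_g1, which splits sucrose to feed UDP-glucose, rose from 2.74, 3.33 and 3.31 FPKM to 36.3, 17.3 and 25.6 FPKM (log2 fold change 2.68 with SE 0.28, adjusted p = 0.000817). Aquaporins, the water channels, gave 7 rises (33.3%) and 1 fall among 21 tested, and 5 and 4 after quantile normalization. T15_1_TRINITY_DN25_c0_g3 went from 22.1, 24.6 and 23.4 FPKM to 65.8, 45.5 and 41.6 FPKM, and TCK_1_TRINITY_DN519_c0_g1 from 63.1, 65.3 and 72.0 FPKM to 41.3, 46.1 and 30.4 FPKM, and both calls (adjusted p = 0.0156 and 0.0181) were lost without any 1 control. The 7 rises became 2 without any 1 control and 3 without 30 mM library 1. Core histones and cyclins, markers of DNA packing and the cell cycle, gave 11 rises (25.6%) and 1 fall among 43 tested, and 9 and 4 after quantile normalization. The histone T30_1_TRINITY_DN569_c0_g1 was at 6.79, 8.60 and 6.19 FPKM in the controls and at 77.6, 24.8 and 20.2 FPKM at 30 mM (adjusted p = 0.0142), led by library 1, and its call was lost without control library 1 or 3. The 11 rises became 5, 7 and 7 without control library 1, 2 or 3 and 7 without 30 mM library 1. Kinesins and tubulins, of the cytoskeleton, gave 6 rises (13.6%) and 1 fall among 44 tested and 1 and 6 after quantile normalization. Their 6 rises became 1, 0 and 2 without control library 1, 2 or 3, 0 and 3 without 30 mM library 1 or 3, and 3 without 15 mM library 1.

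The light reactions were the one list of the 40 with more falls than rises among calls on the deposited scale. Of 56 tested, 30 fell and 0 rose, with a median of -0.84, and 40 and 0 after quantile normalization. The falls became 14 and 19 without control library 2 or 3, and 17 and 18 without 30 mM library 1 or 3. The falls were unevenly spread within the list. Of its chlorophyll a-b binding sequences 19 of 24 fell, and of its photosystem subunits 8 of 24. The summed level of the photosystem subunits was 17700, 21900 and 22500 FPKM in the controls and 21300, 21500 and 15900 FPKM at 30 mM, with only 30 mM library 3 below every control. In FPKM antenna sequences were also the largest losses of annotated sequences called. The chlorophyll a-b binding sequences TCK_3_TRINITY_DN13405_c0_g1 and TCK_1_TRINITY_DN2902_c0_g1, antenna proteins that collect light, were at 740, 1263 and 894 FPKM and at 746, 1256 and 864 FPKM in the controls. At 30 mM they were at 236, 368 and 204 FPKM and at 226, 360 and 195 FPKM, so that control library 2 and 30 mM library 2 were the highest of their groups in both. The antenna sequence T15_3_TRINITY_DN6816_c0_g1 followed the same order, from 623, 986 and 734 FPKM to 214, 307 and 183 FPKM. Other antenna calls held less well. TCK_3_TRINITY_DN259_c0_g1 and T15_3_TRINITY_DN1582_c0_g2 fell from means of 764 and 419 FPKM to 386 and 174 FPKM, and each call was lost in 7 of 20 alternatives. TCK_2_TRINITY_DN1025_c0_g2, with the largest named log2 fall of the list (-2.68), lost its call in 4 of 20. T15_3_TRINITY_DN47874_c0_g1, the small photosystem II protein PsbY, fell from 524, 627 and 567 FPKM to 250, 343 and 253 FPKM (log2 fold change -1.03 with SE 0.20, adjusted p = 0.0114), and this call was lost without control library 2 and after quantile normalization.

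Among the largest falls were a pair of sequences of chlorophyll synthesis. TCK_3_TRINITY_DN2177_c0_g2, a short chain dehydrogenase that its pathway description names as protochlorophyllide reductase, was at 8.89, 12.4 and 7.44 FPKM in the controls and at 0.14, 1.80 and 0.28 FPKM at 30 mM (adjusted p = 0.00245). T15_3_TRINITY_DN27255_c0_g1, of the GUN4-like proteins that activate magnesium chelatase, was at 66.2, 83.6 and 70.3 FPKM in the controls and at 10.2, 14.8 and 13.8 FPKM at 30 mM (adjusted p = 0.00023). Both groups were well apart in each, and both calls held under every alternative run. Other large falls came from separate families. The thiazole synthase Thi4 sequence T30_1_TRINITY_DN15030_c0_g1, of thiamine synthesis, was at 246, 281 and 333 FPKM in the controls and at 47.6, 72.7 and 36.5 FPKM at 30 mM. The papain-type protease T30_3_TRINITY_DN16498_c0_g2 fell from 32.3, 30.2 and 41.6 FPKM to 5.33, 12.9 and 4.26 FPKM (log2 fold change -2.19 with SE 0.34, adjusted p = 0.00458). TCK_3_TRINITY_DN8144_c0_g1, with a CRAL/TRIO domain of lipid-carrying proteins, fell from 8.18, 4.12 and 5.52 FPKM to 0.79, 1.02 and 0.43 FPKM (log2 fold change -1.96 with SE 0.22, adjusted p = 0.00108). The groups were far apart in each of these. Of protein families with at least 10 tested sequences, chlorophyll a-b binding proteins had the largest share of falls, 19 of 24 before and after quantile normalization, and 11, 10 and 12 without control library 2, 30 mM library 1 or 30 mM library 3. Purine transporters followed with 4 falls and 1 rise among 11 (5 and 1 after quantile normalization), and had 0, 1 and 1 falls without control library 1, 2 or 3, 1, 2 and 1 without 30 mM library 1, 2 or 3, and 2 without 15 mM library 1. Family 9 glycosyl hydrolases, the plant endoglucanases, had 4 falls and 0 rises among 12 (5 and 0 after quantile normalization), and 2 falls without control library 1 or 2 or 30 mM library 1 or 3. Homeobox leucine zipper factors had 5 falls and 4 rises among 19 (7 and 4 after quantile normalization), and 2 falls without control library 1 or 2.

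A few sequences went from near absence to clear presence. Under 0.5 FPKM in every control and at 5 FPKM or more in every 30 mM library were 6 annotated sequences, with 0 in the reverse direction, and 9 and 2 sequences outside the annotation. These thresholds were chosen after values of these data had been seen, so the sequences are a description. Besides the glutathione S-transferase T15_3_TRINITY_DN10304_c0_g1 and the AP2 factor T30_3_TRINITY_DN32152_c0_g1 above, they were a membrane transport protein, an acetyltransferase, a RING finger protein and an AAA ATPase. The RING protein T30_2_TRINITY_DN82426_c0_g1 was at 0.15, 0.20 and 0.31 FPKM in the controls and at 6.79, 8.08 and 13.6 FPKM at 30 mM. The transporter T15_1_TRINITY_DN9226_c0_g1 was at 0.13, 0.37 and 0.28 FPKM in the controls and at 12, 8.01 and 7.05 FPKM at 30 mM. The acetyltransferase T30_1_TRINITY_DN309_c0_g1 was at 0.38, 0.39 and 0.45 FPKM in the controls and at 14.1, 6.93 and 14.3 FPKM at 30 mM. The AAA ATPase T30_3_TRINITY_DN4890_c1_g1 was at 0.26, 0.22 and 0.27 FPKM in the controls and at 12.4, 5.93 and 14.1 FPKM at 30 mM. At 15 mM these last 4 lay between 0.16 and 1.78 FPKM.

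The response at 30 mM differed from that at 15 mM in many of the named sequences. Both doses share the control libraries, so the direct contrast of 30 mM with 15 mM is the test of the difference. In this contrast 4.81% of annotated sequences were higher at 30 mM and 1.15% lower. Of the 81 rises named by the rule, 57 were also higher at 30 mM than at 15 mM, and of the 41 named falls 25 were also lower. The members were selected for large changes against control, so these counts describe them and are no measure of the dose effect in general. By contrast, for the xyloglucan enzyme T30_2_TRINITY_DN11898_c0_g1 the log2 fold change against control was 2.26 at 15 mM and 3.28 at 30 mM, and the difference did not pass (adjusted p = 0.165). For the FAE1 sequence T30_1_TRINITY_DN3378_c0_g1, at 3.54, 3.65 and 3.75 FPKM in the controls and 14.3, 11.1 and 13.9 FPKM at 30 mM, these were 1.32 and 1.59 (adjusted p = 0.378). Within the 30 mM group, 43 of the 81 named rises were highest in library 1, 33 in library 3 and 5 in library 2. The cytosol aminopeptidase T15_3_TRINITY_DN3782_c0_g2 had a wide gap of this kind, with 1.44, 1.20 and 0.65 FPKM in the controls and 141, 18.2 and 22.4 FPKM at 30 mM.

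**Figure D4:**
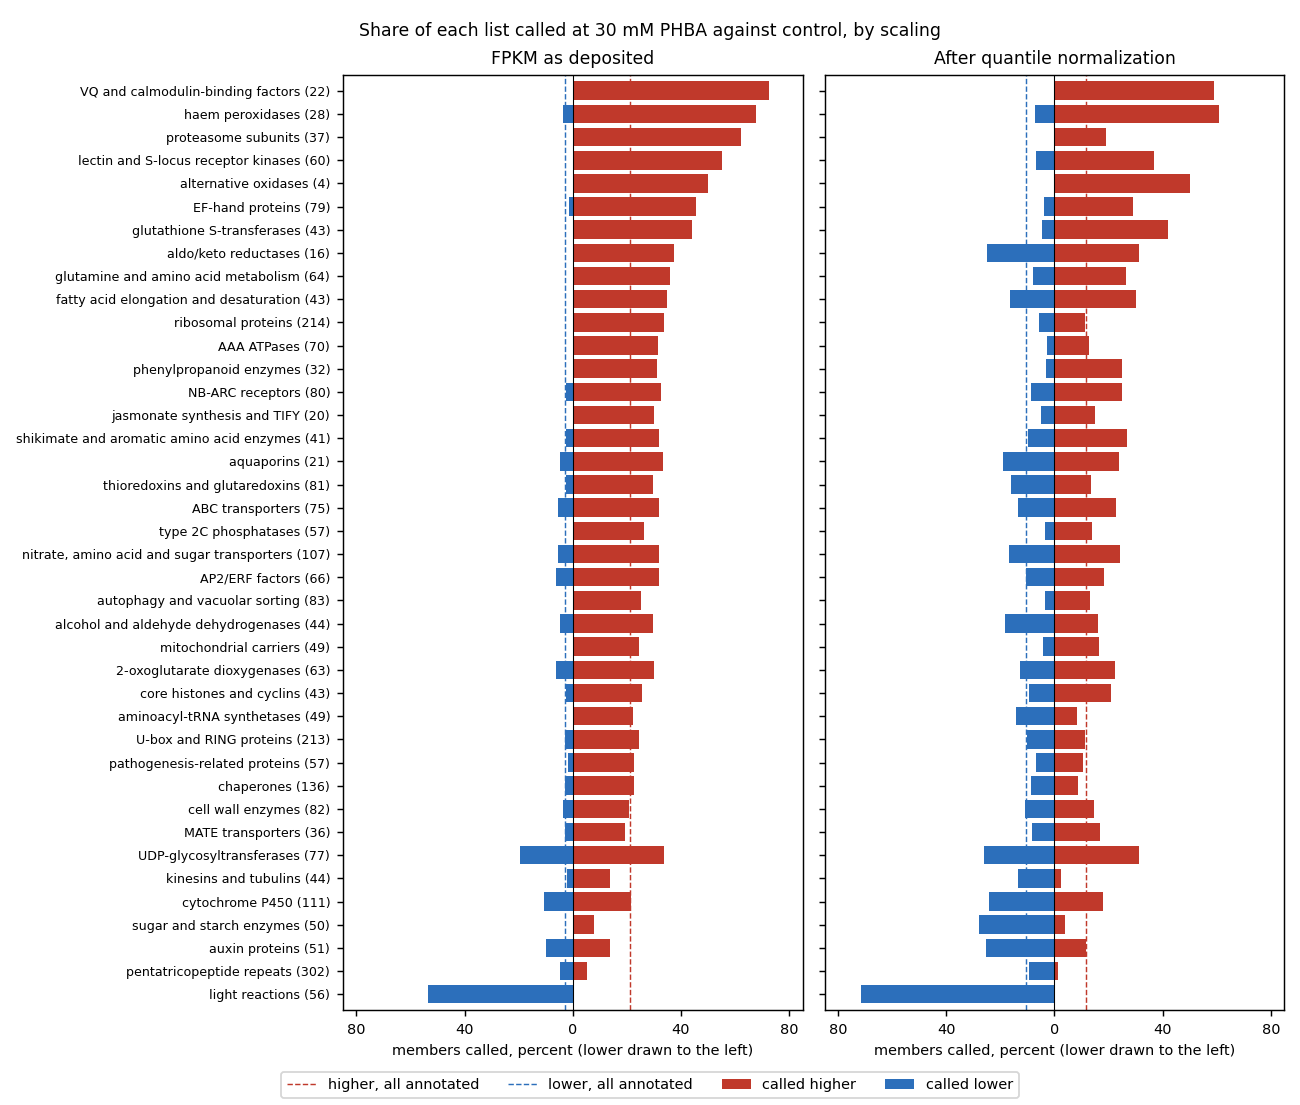
Percent of the tested members of each functional list called higher (red, to the right) or lower (blue, to the left) at 30 mM PHBA against control, with FPKM as deposited (left panel) and after quantile normalization (right panel). Dashed lines give the shares of annotated sequences, 21.1% higher and 2.95% lower on the left and 11.6% and 10.6% on the right. VQ and calmodulin-binding factors, haem peroxidases and glutathione S-transferases keep bars far to the right in both panels, while thioredoxins and glutaredoxins, alcohol and aldehyde dehydrogenases and cytochrome P450 turn to more falls than rises on the right.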

How the data were processed

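Values were used as the authors deposited them, as FPKM with 2 decimals for 82125 sequences in 9 leaf libraries, 3 each at 0, 15 and 30 mM. The deposited sequence names show assembly with Trinity. Per the submitters' processing notes, FastQC 0.11.5, Trimmomatic 0.36, DESeq and RSEM were used, with no role stated. How reads were mapped and which filters were applied is not given in the sources used here. The deposited annotation covers 14831 sequences, 14720 of them in the table, and pairs them with no gene names or positions. Of the 13634 tested, 12549 have a Pfam and 1231 a KEGG description. Many KEGG entries name animal or bacterial enzymes, so families follow Pfam.

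A sequence was kept if 3 or more of the 9 libraries reached 0.5 FPKM (44203). With limma 3.58.1 (R 4.3.3), log2(FPKM + 1) was fitted for 3 groups over 9 libraries (6 residual degrees of freedom), with empirical Bayes moderation and a mean trend. Two-sided p-values were Benjamini-Hochberg adjusted over the kept sequences and called under 0.05. The code was tested on simulated data. An exact permutation test of 3 against 3 libraries cannot go below p = 0.1, so single values were tested in the model only. Read counts are not used here and depth is relative. It is the inverse of the most frequent ratio of low values (at least 0.3 FPKM, above 0 in at most 4 libraries) to those of control replicate 1.

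The 40 lists are words matched in the annotation. Members, lists and the naming rule were chosen with earlier results of these data known. Named sequences are, per list, the 2 largest called rises and 2 largest falls with a mean of at least 5 FPKM in either group and no overlap, the 12 largest of each among all annotated sequences, and the 8 with the largest FPKM difference. Families with at least 10 tested members are named among the 8 with the largest share called each way. Sequences may be in several lists. The alternatives were other pseudocounts, filters and scalings, 6 libraries alone, array weights, no trend, a replicate block, and leaving out each library.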

Additional observations from a re-analysis of the deposited data

How the results depend on the processing

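The counts of calls were 5200 in all, 4425 higher and 775 lower. Without a filter on low values they were 3401 in all and 449 lower. Where the mean had to reach 5 FPKM, so that fewer were tested, they were 2380, 2025 higher and 355 lower. Quantile normalization gave 2486 higher and 2410 lower, and 2800 and 2327 followed from median-of-ratios rescaling. Rescaling after removal of the 4 top sequences gave 6033 calls, 4552 higher and 1481 lower. Leaving out 1 library at a time gave 2350 to 5773 calls, 1972 to 4930 higher and 355 to 843 lower. The runs without a 15 mM library were chosen after seeing the data. With the replicate block there were 3642 calls, 3149 higher and 493 lower. The replicate numbers are not stated to pair the libraries, and deviations of same-numbered control and 30 mM libraries correlated at 0.0059 to 0.0269 across sequences, so the numbers were not taken as pairs. Each library correlated best with its own number, though every value was small, from -0.0272 to 0.0269 over all pairs. No range for unpaired libraries was computed, so pairing is neither shown nor excluded. The cause of these shifts was not tested. Pseudocounts of 0.1 and 5 gave 5450 and 4669 calls, the 6 libraries alone 4508, array weights 6099 and no trend 4605. Of 122 named sequences, 95 were called under all 20 alternatives that could be run for them, and none changed direction. Of 1600 list counts, 439 moved by more than 1.5 times or went from 0 to a higher count. Without read counts the counting error of low values is unknown.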

Other observations

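The pathway descriptions, which cover 1231 of the tested sequences, name a few enzyme groups that the lists did not hold. They were picked after their values were seen and are given as values only. Of 5 sequences described as enoyl-CoA hydratase, an enzyme of fatty acid breakdown, 4 rose and 0 fell, with a median log2 fold change of 1.16, and 2 rose after quantile normalization. There were 2 rises without control replicate 1 or 2 or 30 mM replicate 1. Of 4 described as enolase, of glycolysis, 3 rose and 0 fell, with a median of 0.91, and 2 rose after quantile normalization. Without control replicate 1 or 2 the rises were 0 and 1. Of 4 described as reversibly glycosylated polypeptide or UDP-arabinopyranose mutase, which supplies arabinose for wall polymers, 3 rose and 0 fell, with a median of 1.07, and 1 rose after quantile normalization. There was 1 rise when control library 1 or 2, or 30 mM library 1 or 3, was left out.

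The prefix of a sequence name gives the treatment of the library it was assembled from. Among sequences outside the annotation, 8.91% of the 10696 assembled from 30 mM libraries were called higher and 0.393% lower, against 2.58% and 2.66% of the 8676 assembled from controls. Among annotated sequences these shares were 23.5% and 1.90% of 5375 and 19.5% and 4.76% of 3844. The part of the assembly in the counts of calls was not tested.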
